A study of Mus musculus with 6 samples.

Results

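Enzymes that make and break down lipid mediators were examined in mouse bone marrow, with 8 genes in view: Pla2g7, Dpep2, Alox5, Alox5ap, Lta4h, Ltc4s, Ptgs1 and Ptgs2. They were taken by gene symbol from the platform annotation, keeping probe sets with exactly 1 symbol and, for each gene, the set with the highest mean over all arrays. Of the 8 genes, 7 had such a set, with 8 probe sets in all because Dpep2 had a pair, out of 19938 genes named this way on the array. No probe set carried the symbol Ptgs1 alone in the annotation used, and this gene was not analysed here. All 7 genes passed a filter on low signal that left 11940 genes. The arrays were 3 from wild type and 3 from diabetic mice, all males of 10 weeks on the BKS.Cg background with the Leprdb/JNju designation, labelled +/+ for wild type and -/- for diabetic. The db change in Lepr, which encodes the leptin receptor, leads to obesity and type 2 diabetes, and it acts in the whole animal and not in the marrow alone. The marrow had been flushed from femur and tibia shafts and not sorted, so a shift in the share of a cell type and a shift in RNA per cell cannot be told apart. The labels do not say if each array read a single animal or several pooled ones, and p-values here cover only the scatter among these arrays, which may be technical.

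Lipid mediators are short-range signals cut from membrane lipids. Arachidonic acid is released by phospholipases A2 and enters either of a pair of routes. In the first, 5-lipoxygenase (Alox5) and its membrane partner FLAP (Alox5ap) form leukotriene A4, which Lta4h turns into the neutrophil attractant leukotriene B4 and Ltc4s into the cysteinyl leukotriene C4. Gamma-glutamyl transferases and then membrane dipeptidases such as Dpep2 trim leukotriene C4 further to its D4 and E4 forms. In the second, the cyclooxygenases Ptgs1 and Ptgs2 form the precursor of prostaglandins and thromboxane. Pla2g7 belongs to another branch: it is the secreted hydrolase that inactivates platelet-activating factor and cleaves oxidised phospholipids. Neutrophils, monocytes and macrophages of the marrow are known users of the leukotriene route.

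Pla2g7 and Dpep2 were chosen by their difference between the groups in this very comparison, and the others because they belong to the same pathways. The differences of Pla2g7 and Dpep2 are therefore given as descriptions with no test. In the fit across all genes, 10 of 11940 genes, or 0.0838%, were higher in diabetic marrow past an adjusted p of 0.05, and Pla2g7 and Dpep2 were 2 of these 10. A further 39 genes, or 0.327%, were lower past the same threshold and none of the 7 genes was among them. Diabetic values that all lay above all wild type values were found in 6.99% of the genes tested, and the reverse order in 5.38%. Of the 7 genes, 4 had the first order, Pla2g7, Dpep2, Alox5 and Alox5ap, and none the second.

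The log2 signal of Pla2g7 was 11.15, 11.07 and 11.03 on wild type arrays 1, 2 and 3, and 11.62, 11.60 and 11.75 on diabetic arrays 1, 2 and 3. The groups did not overlap, and the gap between the highest wild type and the lowest diabetic value, 0.45, was larger than the pooled standard deviation within groups, 0.07. The means were 11.08 ± 0.06 and 11.66 ± 0.08 (SD, n = 3 each), a log2 change of 0.58 ± 0.07 (SE) or 1.49-fold. Only 18 of the 11940 genes tested had a larger upward change. Leaving out 1 array at a time kept the change between 0.53 and 0.61, while the call was lost without wild type replicate 2 and without each of the diabetic replicates, and also with all probe sets tested.

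**Figure D1:**
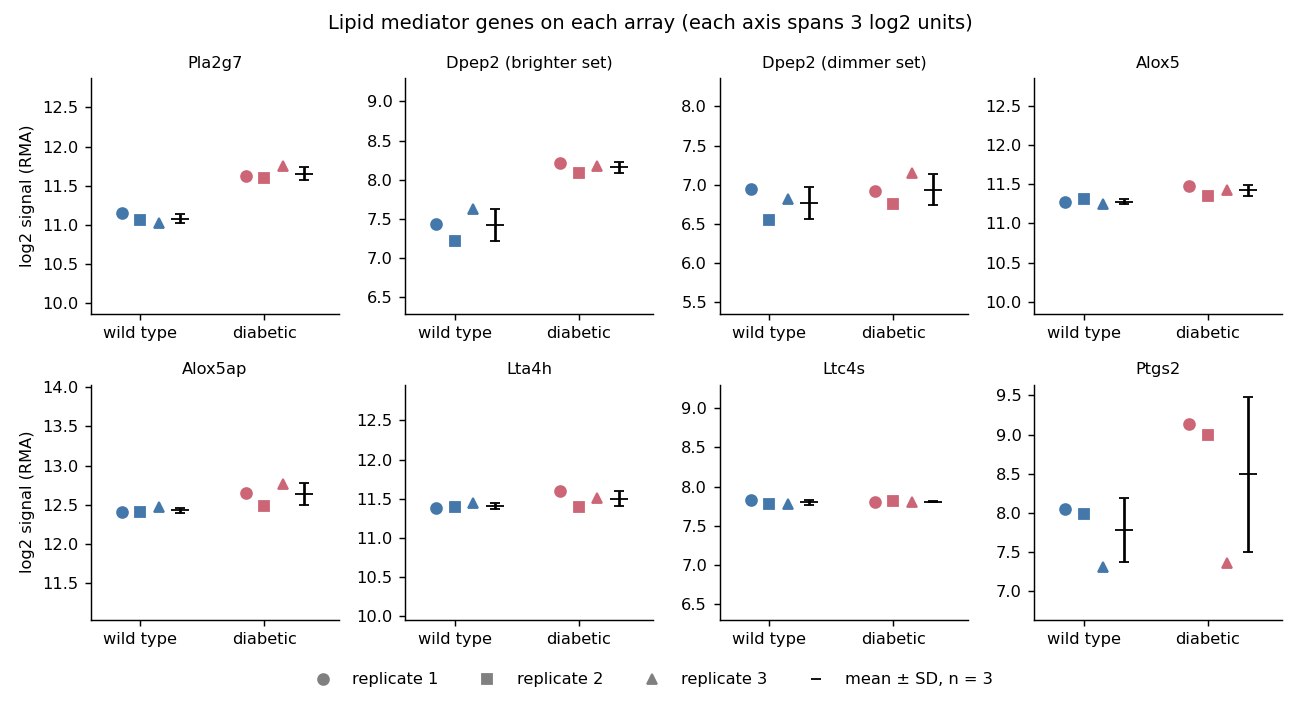
Log2 signal (vertical axis, RMA units) of the 8 probe sets on each array, with wild type arrays in blue, diabetic arrays in red, a marker shape for each replicate number, and the mean ± SD of 3 arrays in black. Pla2g7 lies between 11.03 and 11.15 in wild type and between 11.60 and 11.75 in diabetic marrow, while both replicate 3 arrays of Ptgs2 lie low, at 7.31 and 7.36.

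The start region of Pla2g7 is shown because this gene had the widest gap between groups for its spread among the 7. It comes from RefSeq on build GRCm38.p6, chr17:43568201-43568500 on the plus strand, and spans 250 bases before to 50 bases after the annotated start. Motif letters were searched on both strands: GAGGAAGT for PU.1, TTGCNNAA for C/EBP, TGANTCA for AP-1, GAAANNGAA for the interferon element and TGTTCT for a part of the glucocorticoid element. Capitals mark the single match, the glucocorticoid letters on the other strand at 122 to 117 bases before the start.
Pla2g7: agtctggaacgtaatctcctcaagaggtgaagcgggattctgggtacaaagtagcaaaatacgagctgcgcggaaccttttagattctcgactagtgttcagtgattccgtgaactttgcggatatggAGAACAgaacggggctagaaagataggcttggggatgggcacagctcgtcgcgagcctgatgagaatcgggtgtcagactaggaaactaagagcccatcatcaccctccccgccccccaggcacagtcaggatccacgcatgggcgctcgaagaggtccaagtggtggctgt
Those letters occur in 19.0% of 32851 windows of this length, and the match is a description of these letters. PU.1 letters occur in 3.20% of windows, C/EBP letters in 10.8%, AP-1 letters in 7.81% and the interferon element in 8.56%. The sequence table held windows for 6 of the 8 genes, and Dpep2 and Alox5ap are named only.

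Dpep2, the membrane dipeptidase, was read by both of its probe sets. On the brighter set (10581434) the log2 signal was 7.43, 7.22 and 7.63 in wild type and 8.21, 8.08 and 8.18 in diabetic marrow. The groups were apart by 0.45, against a pooled standard deviation of 0.15. The means of 7.43 ± 0.20 and 8.16 ± 0.07 (SD, n = 3 each) gave a log2 change of 0.73 ± 0.10 (SE), or 1.66-fold. Its wild type mean lay under the level filter of 7.52, as did 2 of the wild type arrays, so the gene entered the test only through its diabetic values and the fold is uncertain.

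The dimmer Dpep2 set (10581448) read 6.95, 6.55 and 6.82 on wild type and 6.92, 6.75 and 7.15 on diabetic arrays. These groups overlapped, and all 6 values lay under the level filter. The change was 0.17 ± 0.13 (SE, n = 3 per group), with an unadjusted 95% interval of -0.12 to 0.46. The changes of the sets differed by 0.56. This is a description with no test, since the brighter set was chosen by this comparison and the dimmer one read under the filter throughout. The annotation ties the brighter set to 6 transcripts, 3 of them RefSeq records, and the dimmer set to 2 of the same 6 and to 0 RefSeq records. Leaving out 1 array at a time kept the change of the brighter set between 0.63 and 0.83. Its call was lost in 5 of these 6 cases, the exception being wild type replicate 3, and also with median centring and with all probe sets tested.

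Both dipeptidase relatives of Dpep2 in the list, Dpep1 and Dpep3, were under the level filter and gave no value here. Of the other enzymes that trim cysteinyl leukotrienes, Ggt5 read 8.87, 8.71 and 8.68 on wild type and 8.91, 8.70 and 9.18 on diabetic arrays, which overlapped. Its change of 0.18 ± 0.12 had an adjusted p = 0.903 (limma, Benjamini-Hochberg).

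Alox5, the enzyme that opens the leukotriene route, read 11.27, 11.31 and 11.25 on wild type and 11.48, 11.35 and 11.43 on diabetic arrays. All diabetic values lay above all wild type values, by a gap of 0.036 that was smaller than the pooled standard deviation of 0.052. The change was 0.14 ± 0.06 (SE, n = 3 per group) and did not pass, with an adjusted p = 0.691 (limma, Benjamini-Hochberg). Its partner Alox5ap read 12.41, 12.41 and 12.47 on wild type and 12.65, 12.49 and 12.77 on diabetic arrays. These groups were also apart, by 0.019, against a pooled standard deviation of 0.10. The change of 0.20 ± 0.08 had an adjusted p of 0.640 in the same fit and did not pass. The unadjusted 95% intervals ran from 0.0015 to 0.28 for Alox5 and from 0.019 to 0.39 for Alox5ap.

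Downstream of them, Lta4h, the leukotriene A4 hydrolase, read 11.38, 11.40 and 11.45 on wild type and 11.60, 11.40 and 11.51 on diabetic arrays. The groups overlapped, and the change of 0.09 ± 0.07 (limma, Benjamini-Hochberg adjusted p = 0.911) had an unadjusted 95% interval of -0.07 to 0.25. Ltc4s, the leukotriene C4 synthase, was the flattest of the 7 genes. It read 7.83, 7.78 and 7.78 on wild type and 7.80, 7.81 and 7.80 on diabetic arrays, not far above the level filter of 7.52. Its change was 0.01 ± 0.05 with an unadjusted 95% interval of -0.12 to 0.13 (limma, Benjamini-Hochberg adjusted p = 0.997), and its sign turned under further quantile normalization and median centring.

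**Figure D2:**
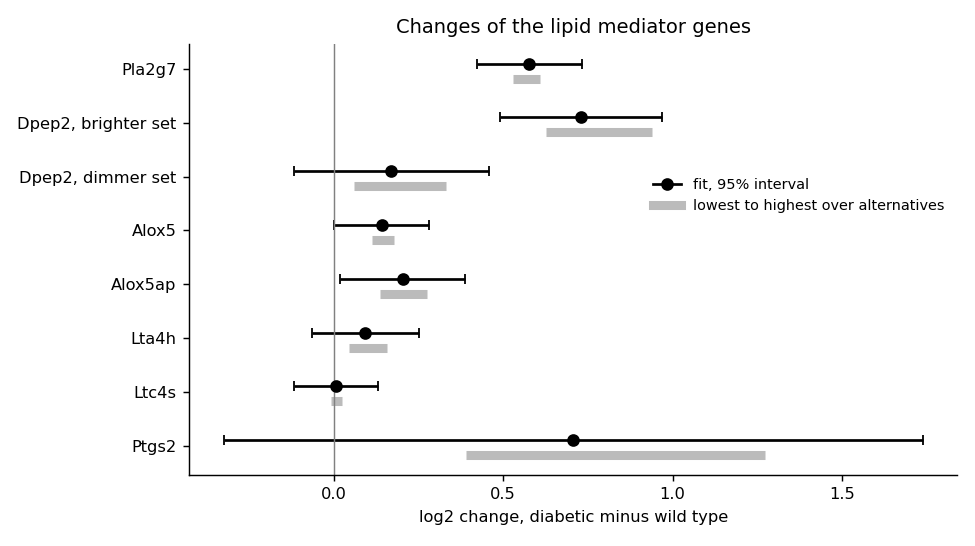
Log2 change of each probe set, diabetic minus wild type (horizontal axis), as points with unadjusted 95% intervals from limma, over grey bars that span the lowest to the highest value among all settings tried. The intervals of Pla2g7 and of the brighter Dpep2 set lie above 0, while that of Ptgs2 runs from -0.32 to 1.74. Pla2g7 and Dpep2 were chosen by this same difference, so the place of their intervals is a description and no test.

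Ptgs2, the inducible cyclooxygenase that many cells switch on within a short time of a stimulus, varied most within groups of the 7 genes. It read 8.05, 7.99 and 7.31 on wild type and 9.13, 8.99 and 7.36 on diabetic arrays. Diabetic replicates 1 and 2 stood above every other array, while replicate 3 of both groups was low and nearly equal. The means of 7.78 ± 0.41 and 8.49 ± 0.98 (SD, n = 3 each) gave a change of 0.71 ± 0.44 (SE), with an adjusted p = 0.884 (limma, Benjamini-Hochberg). The change was about as large as that of Dpep2 but smaller than the spread between its own replicates. When 1 array was left out the change ran from 0.39, without diabetic replicate 1, to 1.27, without diabetic replicate 3, and passed in neither case.

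The start region of Ptgs2 is shown because it held the one other match among the measured genes with a window. It is RefSeq sequence on GRCm38.p6, chr1:150099781-150100080, plus strand, with the palindromic C/EBP letters in capitals at 69 to 62 bases before the start.
Ptgs2: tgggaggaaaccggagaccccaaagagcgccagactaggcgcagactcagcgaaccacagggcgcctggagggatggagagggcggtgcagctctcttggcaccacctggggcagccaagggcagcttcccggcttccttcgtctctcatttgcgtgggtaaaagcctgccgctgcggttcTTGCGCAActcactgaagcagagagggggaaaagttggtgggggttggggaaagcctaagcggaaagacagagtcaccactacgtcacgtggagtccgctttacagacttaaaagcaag
The windows of Alox5, Lta4h and Ltc4s held none of the 5 sets of letters.

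The wider pathway was described with 8 lists of 99 genes, of which 92 had a probe set and 69 were tested. Past the threshold were 2 of these 69 genes, Pla2g7 and Dpep2, where 0.0838% of all genes tested were higher past it. Both had been chosen by this difference, so nothing is read from that count. Without the 7 members, 62 genes were tested, and 0 passed in limma after Benjamini-Hochberg. At an unadjusted p under 0.05 there were 7 of the 62, where the share over all genes tested was 7.16%. The median change of the 62 was 0.03 beside 0.005 for all genes tested. Of these 62 genes 39 were above 0, against 52.4% of all genes tested. The count fell to 34 with further quantile normalization and 35 with median centring. In 8 of the 62 every diabetic value exceeded every wild type value, where 6.99% of all genes tested had this order. In 1 of the 62 the reverse held, beside 5.38% of all genes tested.

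In the list of leukotriene enzymes 1 of 14 tested genes was past the threshold, Dpep2, which this difference had chosen. Members included, all 14 had a change above 0, against 52.4% of all genes tested, or 13 with either further normalization, where Ltc4s turned. The median was 0.12, and among the 9 that are not members it was 0.11. Cyp4f18, a cytochrome that inactivates leukotriene B4 in mouse neutrophils, read 11.05, 11.19 and 11.20 on wild type and 11.51, 11.23 and 11.46 on diabetic arrays, with a change of 0.25 ± 0.09. Abcc1, an exporter of leukotriene C4, had 0.17 ± 0.07. For both the groups were apart, and neither passed (limma, Benjamini-Hochberg adjusted p = 0.580 and 0.658).

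Of the leukotriene receptors 2 were tested and 3 were under the level filter. Ltb4r1, the high-affinity receptor for leukotriene B4, read 9.78, 9.87 and 9.83 on wild type and 10.14, 9.88 and 10.10 on diabetic arrays. Its groups were apart, with a change of 0.21 ± 0.08 and an adjusted p = 0.619 (limma, Benjamini-Hochberg). Cysltr1, a receptor for cysteinyl leukotrienes, was at -0.10 ± 0.08 and its groups overlapped.

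Diabetic replicate 2 was the lowest diabetic array in 10 of the 14 leukotriene enzyme genes, Alox5, Alox5ap and Lta4h among them, and the highest in the other 4, Ltc4s, Gpx1, Gpx4 and Mgst3. Over all genes tested it was the lowest in 42.0% and the highest in 33.3%. The same array had the lowest diabetic mean of the late neutrophil marker list, 12.49 against 12.67 and 12.71, and of the promyelocyte list, 11.64 against 11.92 and 12.00. In wild type marrow the late neutrophil mean was 12.48 to 12.58 and the promyelocyte mean 11.71 to 11.82. Diabetic replicate 2 was also the lowest diabetic array in the monocyte list, at 11.05 against 11.16 and 11.20. In the list of mast cells, basophils and eosinophils it was lowest too, at 10.74 against 10.76 and 10.84. It was the highest diabetic array in the erythroid list, at 11.95, the B lineage list, at 11.02, and the megakaryocyte list, at 9.80. Without diabetic replicate 2 the changes were 0.18 for Alox5, 0.28 for Alox5ap and 0.14 for Lta4h, beside 0.14, 0.20 and 0.09 with all arrays. That array held the lowest diabetic value of each of these genes. Leaving it out therefore had to raise their changes, and nothing is read from the rise. The part of granulocytes, or of any other cell type, in these differences was not tested.

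Around Pla2g7, the list for platelet-activating factor had 11 tested genes, 9 of them above 0, with a median of 0.13. Without Pla2g7, which this difference had chosen, 8 of 10 were above 0, against 52.4% of all genes tested, and the median was 0.10. In 2 of these 10 every diabetic value exceeded every wild type value, where 6.99% of all genes tested had this order. These were Pafah1b1, at 0.15 ± 0.06, and Cept1, at 0.13 ± 0.07. The other genes that break down the mediator were Pafah2, at 0.13 ± 0.07, and the catalytic subunits Pafah1b2, at 0.05 ± 0.06, and Pafah1b3, at -0.39 ± 0.25. Pafah1b3 read 11.16, 11.05 and 10.32 on wild type and 10.57, 10.78 and 10.04 on diabetic arrays, so the groups overlapped. Its change was -0.175 without diabetic replicate 3 and -0.646 without wild type replicate 3. On the side of synthesis Lpcat2, an acyltransferase that makes platelet-activating factor in inflammatory cells, was at 0.16 ± 0.08, and Chpt1, a choline phosphotransferase, at 0.16 ± 0.10, or 0.047 without wild type replicate 1. The receptor Ptafr was at 0.03 ± 0.08. None of the 10 genes other than Pla2g7 passed, with adjusted p from 0.612 for Pafah1b1 to 0.993 for Ptafr in limma after Benjamini-Hochberg.

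**Figure D3:**
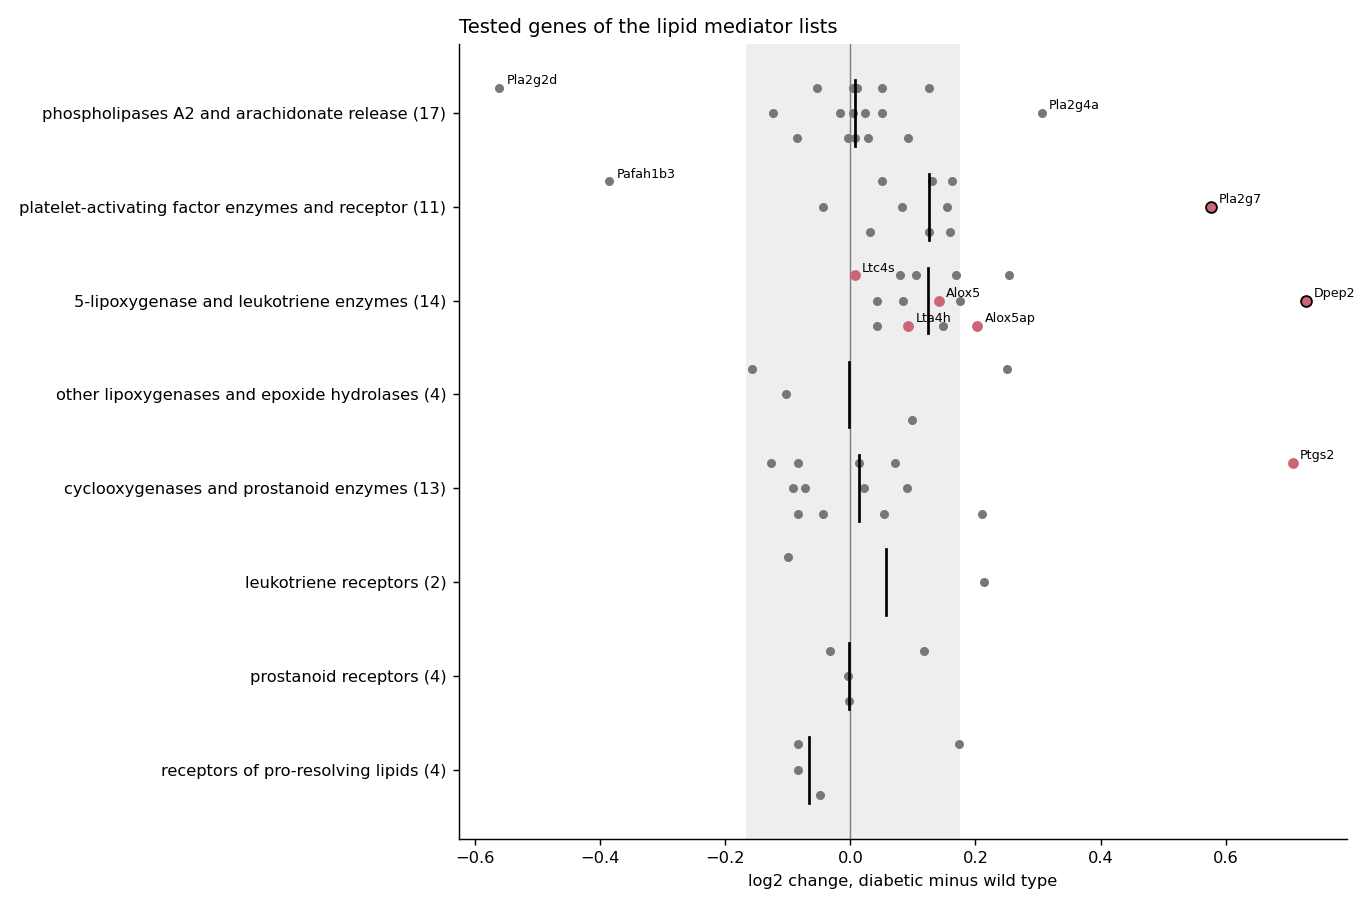
Log2 change, diabetic minus wild type (horizontal axis), of the 69 tested genes in 8 lists (number per list in brackets). Members are red, genes past an adjusted p of 0.05 have a black rim, black bars are list medians and the grey band spans the percentiles 5 to 95 of all genes tested, -0.17 to 0.17. Pla2g7, Dpep2 and Ptgs2 stand to the right of the other genes and Pla2g2d, at -0.56, to the left.

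Upstream of both routes, the list of phospholipases A2 and other arachidonate release genes had a median change of 0.01 over 17 tested genes. Of these 11 were above 0, or 7 with either further normalization. At the ends of the list were Pla2g4a and Pla2g2d. Pla2g4a, the cytosolic enzyme that supplies arachidonic acid to Alox5 and the cyclooxygenases, read 9.17, 9.30 and 9.63 on wild type and 9.68, 9.69 and 9.65 on diabetic arrays. Its groups were apart by a narrow margin, with a change of 0.31 ± 0.11 and an adjusted p = 0.605 (limma, Benjamini-Hochberg). Pla2g2d, a secreted phospholipase known in mouse from lymphoid dendritic cells and macrophages, read 7.84, 8.36 and 7.94 on wild type and 7.48, 7.44 and 7.55 on diabetic arrays. It was the one pathway gene with every diabetic value below every wild type value. Its change of -0.56 ± 0.13 did not pass (adjusted p = 0.239 in the same fit), and its diabetic mean of 7.49 lay under the level filter. The fold against that group is therefore uncertain. Pla2g4c was at 0.13 ± 0.11.

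Among the 13 tested genes of the prostanoid route 7 were above 0 and the median was 0.01. Ptges, the inducible prostaglandin E synthase that works with Ptgs2, read 8.79, 8.74 and 8.49 on wild type and 8.89, 8.88 and 8.87 on diabetic arrays. Its change of 0.21 ± 0.08 did not pass (limma, Benjamini-Hochberg adjusted p = 0.652), although the groups were apart. Unlike Ptgs2, it was not low on diabetic replicate 3. Like Ptgs2, it was lowest on wild type replicate 3, and without that array its change was 0.12. Ptges3, a constitutive prostaglandin E synthase and co-chaperone, was at -0.13 ± 0.11, and Hpgd, which inactivates prostaglandins, at -0.09 ± 0.08. The 4 tested prostanoid receptors lay between -0.03, for Ptger1, and 0.12, for the prostacyclin receptor Ptgir, with Ptger4 at -0.003. The 4 other lipoxygenase and epoxide hydrolase genes included Alox12e, at 0.25 ± 0.11, Alox12 of platelets, at -0.16 ± 0.23, and Ephx1, at -0.10 ± 0.17. Receptors for pro-resolving lipids ran from -0.08, for Cmklr1 and Lgr6, to 0.17, for Ffar1.

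Several other cell types could bring these enzymes into marrow RNA, and their markers were read on the same arrays. For the marrow label, 16 of 16 late neutrophil, 6 of 6 erythroid and 7 of 8 B lineage markers with a probe set passed the level filter, Vpreb1 being the exception. The list mean of resident macrophage markers did not overlap between groups, at 9.50 to 9.69 in wild type and 9.28 to 9.40 in diabetic marrow. Of the 12 tested, 7 had every diabetic value below the wild type values, where 5.38% of all genes tested did, and 1 above them, beside 6.99%, and 0 passed in limma after Benjamini-Hochberg, while 9 had an unadjusted p under 0.05, beside 7.16% of all genes tested. C1qb, at -0.62 ± 0.12, and Axl, at -0.53 ± 0.09, had the largest changes. Monocyte markers overlapped, at 10.91 to 11.12 against 11.05 to 11.20. Fn1, at 0.65 ± 0.13, and F13a1, at 0.28 ± 0.10, had the largest changes of this list. Of the 8 tested, 6 had a change above 0, or 5 with either further normalization, beside 52.4% of all genes tested. Their median was 0.079 and the lowest change -0.108.

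Markers of mast cells, basophils and eosinophils, cells known for Ltc4s, had a mean of 10.63 to 10.80 in wild type and 10.74 to 10.84 in diabetic marrow. Cma1 and Tpsb2 were under the level filter. Of the 14 tested, 7 had a change above 0, beside 52.4% of all genes tested, and the median was 0.013. Megakaryocyte and platelet markers were at 9.43 to 10.19 and 9.55 to 9.80, with Gp5 at -0.15 ± 0.18 and Gp9 at -0.11 ± 0.20. Erythroid markers were at 11.42 to 12.02 and 11.58 to 11.95, with Tfrc at 0.16 ± 0.16 and Klf1 at -0.06 ± 0.20. B lineage markers were at 10.54 to 11.59 and 10.66 to 11.02, and 0 of the 7 tested had a change above 0, with a median of -0.27. Their groups overlapped through wild type replicate 3. Rag1, which cuts the gene segments of the antigen receptors, was at -0.60 ± 0.22 and the pre-B cell gene Vpreb3 at -0.50 ± 0.32, and neither passed (limma, Benjamini-Hochberg adjusted p = 0.595 and 0.888). Adipocyte markers, with only 4 tested and Adipoq and Lep under the filter, were at 7.97 to 8.03 and 8.06 to 8.20. These list means did not overlap and were higher on the diabetic arrays. Of the 4 genes, 3 had a change above 0, or 2 with either further normalization. Only 1 of them, Lpl, had groups apart, higher in diabetic marrow, where 6.99% of all genes tested did. Endothelial markers were at 8.54 to 8.69 and 8.50 to 8.56. The part of any of these cell types in the changes of Pla2g7 and Dpep2 was not tested.

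**Figure D4:**
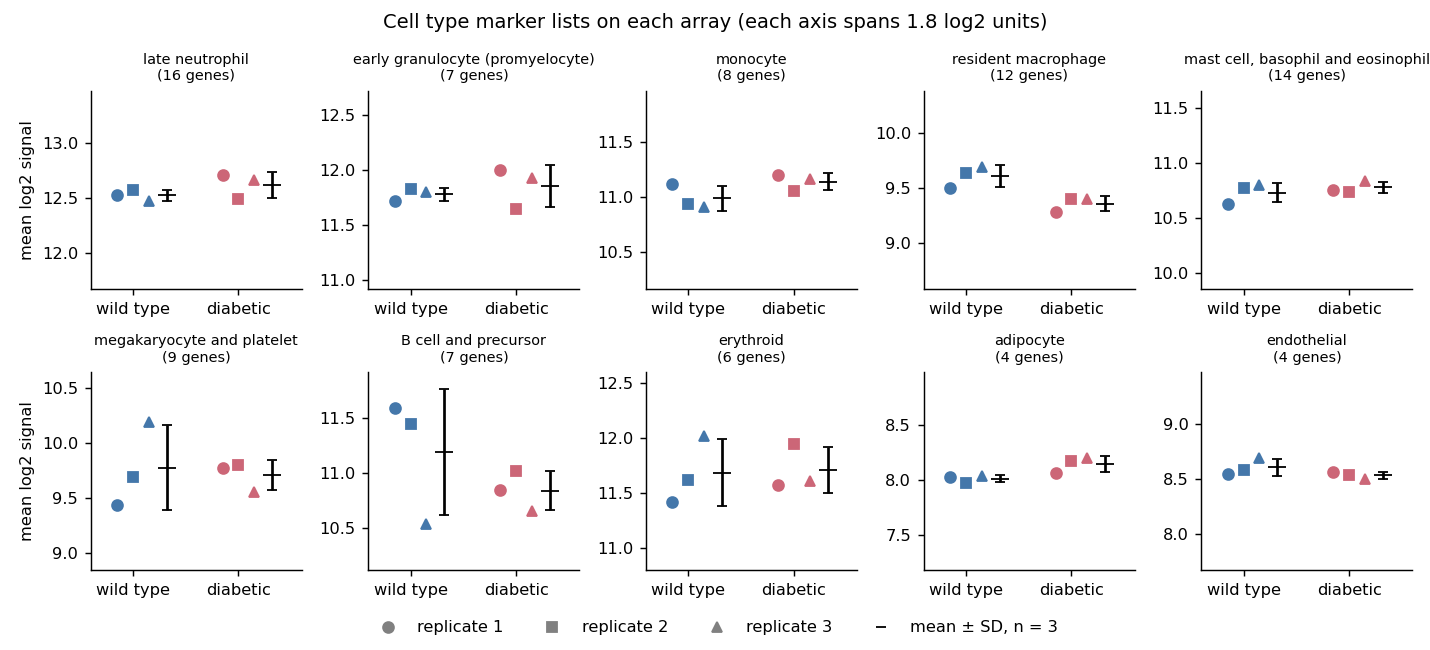
Mean log2 signal (vertical axis) of the tested genes in 10 cell type marker lists on each array, with wild type in blue, diabetic in red, a marker shape for each replicate number and the mean ± SD of 3 arrays in black. The groups do not overlap in the resident macrophage list, lower on diabetic arrays, and in the adipocyte list, higher on them. The adipocyte list has only 4 tested genes, 1 of them with groups apart. Wild type replicate 3 stands apart in the B cell list at 10.54.

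Wild type replicate 3 stood apart in the B cell list, at 10.54 against 11.45 and 11.59 on the other wild type arrays, and in the megakaryocyte list, at 10.19 against 9.43 and 9.69. Without it the changes were 0.55 for Pla2g7, 0.83 for Dpep2, 0.13 for Alox5, 0.22 for Alox5ap, 0.11 for Lta4h and 0.47 for Ptgs2. Pla2g4a then joined Pla2g7 and Dpep2 past the threshold, at 0.44 with an adjusted p = 0.0396 (limma, Benjamini-Hochberg), where its adjusted p ran from 0.00588 to 1 over the alternatives. This array held the highest wild type value of Pla2g4a, 9.63 against 9.17 and 9.30, so its change had to grow. Nothing is read from the new call. The B lineage list means without this array did not overlap, at 11.45 and 11.59 against 10.66 to 11.02. This array had been singled out as the low one of that list, so the separation follows from leaving it out. Rag1 read 9.07 on this array against 9.89 and 9.96 on the other wild type arrays, so the size of its change had to grow. Rag1 then passed as well, at -0.885 with an adjusted p = 0.0121 in the same fit, against 0.00201 to 1 over the alternatives.

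Finally, the genes whose 6 values ran most like those of Pla2g7 and Dpep2 were sought among all genes tested, by the root mean square difference of log2 values centred on each gene's mean. The search uses the same group difference that chose both genes, so it names other genes with that difference. Nearest to Pla2g7 were Hgf, hepatocyte growth factor, at 0.082, Tmem71 at 0.085, the transporter Slc6a12 at 0.087, the transcription factor Mkx at 0.087 and the receptor Fgfr1 at 0.093. Their log2 changes lay between 0.45, for Hgf, and 0.52, for Tmem71. Nearest to Dpep2 were Ccr3, the eotaxin receptor of eosinophils, at 0.15, then Pla2g7 at 0.16, Mkx at 0.16, the gene model 1700006J14Rik at 0.17 and Hgf at 0.17. Dpep2 was 53rd in the order of genes nearest to Pla2g7. Ccr3 read 9.55, 9.76 and 9.97 on wild type and 10.31, 10.45 and 10.46 on diabetic arrays, a change of 0.65 ± 0.11.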

How the data were processed

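RNA of mouse bone marrow was read on 6 Affymetrix arrays, and groups were taken from the sample titles. The values deposited are on a log2 scale, 1 per probe set, and the submitters' processing notes name RMA and Affymetrix Expression Console as the authors' tools, with versions and genome build not given there. RMA equalises the distributions of the arrays, so a shift shared by most genes cannot be seen. Array medians ran from 7.67 to 7.73. Their number limits the precision. Of 35556 probe sets, 21789 had 1 symbol, 1621 several and 12146 none, and only the first were named.

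For each gene the probe set with the highest mean was kept, and genes under the 40th percentile of single-symbol sets, a log2 signal of 7.52, were left out. The groups were compared with lmFit and eBayes of limma 3.58.1 (R 4.3.3), and p-values were adjusted over the 11940 genes by Benjamini-Hochberg. The dimmer Dpep2 set was fitted with all 21789 sets. Errors of changes are standard errors of the fit. The fit was tested on simulated data. Named genes were the members, up to 3 further tested genes per pathway list with the largest change, up to 2 per marker list, and the 5 nearest profiles. The other genes named, such as Pafah2, Pafah1b2 and Ptafr, were chosen after their values were seen. The members and lists were chosen with earlier results of these data known. Figures were drawn with matplotlib 3.10.9. One further part of the genotype label is not reported here.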

Additional observations from a re-analysis of the deposited data

How the results depend on the processing

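The number of genes past the threshold, 49, stayed within 1.5 times of that under 6 settings (no filter on level, the 60th percentile as filter, a second quantile normalization, centring on medians, averaged probe sets, and eBayes with trend and robust options). It was 1131 with array weights, which ran from 0.283 to 6.78 across arrays, 1 with all probe sets tested and 2 with the replicate block, and 3 to 68 with an array left out, with 13 without wild type replicate 2 and 5, 3 and 12 without diabetic replicates 1, 2 and 3. The lipid mediator genes past it, 2 at first, were 1 with the filter at the 60th percentile, with median centring and with the mean of probe sets, 11 with array weights, 0 with all probe sets, 0 with the replicate block, and 0 to 3 with an array left out. Same-numbered arrays deviated from their group means with correlations of 0.33, -0.04 and -0.05, and not every array correlated best with its own number, so the numbers were not taken as pairs.

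The sizes of the changes moved less than the calls. Pla2g7 stayed at 0.577 with the replicate block and with all probe sets, where its call was lost, and ranged over 0.530 to 0.609 with an array left out. Dpep2 lost its call at 0.718 with median centring and at 0.729 with the replicate block and with all probe sets, and ranged over 0.625 to 0.829 with an array left out. It was not tested with the mean of probe sets or at the 60th percentile, since it fell under those filters. The difference between its probe sets ranged over 0.474 to 0.651 with an array left out. Alox5ap passed only with array weights, at 0.231. Ltc4s turned to -0.007 with further quantile normalization and -0.004 with median centring and ranged over -0.002 to 0.024 with an array left out. Ptger4 turned to 0.029 and Gp5 to 0.064 with array weights. Leaving out 1 array turned the sign of some small changes, with ranges of -0.404 to 0.120 for Alox12, -0.305 to 0.026 for Ephx1, -0.022 to 0.239 for Ptgir, -0.062 to 0.013 for Ptger1, -0.056 to 0.092 for Ptger4, -0.018 to 0.328 for Ffar1, -0.263 to 0.076 for Gp5, -0.313 to 0.120 for Gp9 and -0.246 to 0.170 for Klf1. Apart from fewer samples or more features tested, the cause of these shifts was not tested. With 1 array left out, 25 of the 49 other named genes moved by over 1.5 times, none of them past the threshold, and so did Lta4h, Ltc4s, Ptgs2 and the dimmer Dpep2 set. Of 720 values for the 49 other named genes under the alternatives, 650 kept direction and side of the threshold, 31 lost a call, 25 gained one and 14 turned sign. Ltc4s and both Dpep2 sets lay close to the level filter or under it, where small changes are hard to read. Both replicate 3 values of Ptgs2 lay under it too.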

Other observations

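Among the marker genes read beside the lipid mediator enzymes, Il1b, an inflammatory cytokine of myeloid cells, read 9.79, 10.34 and 10.19 on wild type and 11.14, 10.49 and 10.42 on diabetic arrays. Every diabetic value lay above every wild type value, where 6.99% of all genes tested had this order. The change of 0.58 ± 0.21 did not pass (limma, Benjamini-Hochberg adjusted p = 0.604) and was 0.346 without diabetic replicate 1. Of the 16 late neutrophil markers tested, only Il1b had groups apart. In that list 10 had a change above 0, and the median was 0.041. Trem1, an amplifying receptor of neutrophils and monocytes, was at 0.32 ± 0.12, and its groups overlapped. Fcer1a, a chain of the high-affinity receptor for immunoglobulin E on mast cells and basophils, was at -0.38 ± 0.23 and at -0.187 without wild type replicate 2. The eosinophil gene Ccr3 was at 0.65 ± 0.11. Neither passed, with adjusted p = 0.871 and 0.0719 (limma, Benjamini-Hochberg). Both come from the list of mast cells, basophils and eosinophils, where 7 of 14 tested genes had a change above 0, with a median of 0.013. Lpl, lipoprotein lipase, was at 0.31 ± 0.10 with groups apart (adjusted p = 0.561 in the same fit).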
